A study of Homo sapiens with 8 samples.

Results

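Mitochondrial ribosomal proteins are encoded by nuclear genes with symbols beginning MRPL (large subunit) and MRPS (small subunit). The genes described here are those of the 13036 in the expression table whose symbol is MRPL or MRPS followed by a number and at most 1 further letter. There were 75 of them, 47 MRPL and 28 MRPS, and all 75 passed the filter on low values. The rule reads only the symbol. A reference table from RefSeq lists 77 symbols of this form, and those outside the expression table were not analysed here. The cells were LN229-TAZ(4SA), an established human glioblastoma line that carries the TAZ(4SA) form of the co-activator TAZ in every group. Cells kept without glucose and with AF at 1 µM for 1 h or 7 h were compared with cells in regular culture, with glucose and without AF, at the same times, with 2 libraries in each of the 4 groups. The study asks how inhibition of thioredoxin reductase 1 acts on glucose-starved glioblastoma cells. The labels name the agent only as AF, and since it was always combined with loss of glucose, the action of each cannot be told apart.

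The mitochondrial ribosome, or mitoribosome, translates the few messenger RNAs made from mitochondrial DNA, which code for core subunits of the respiratory chain and the ATP synthase. Its RNA parts are made inside the organelle, while its proteins are made in the cytosol and imported, so the nuclear genes and the mitochondrial genome have to work together. Some of these proteins have homologues in all ribosomes, some in bacterial ribosomes, and others occur only in mitochondria. The levels given here are of mRNA and do not show how much protein was assembled.

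The libraries held between 27731776 and 45811965 reads in listed genes. Levels are given in CPM (the reads of a gene scaled for library size) on the scale of the deposited table, and no member had fewer than 55 reads in any library. Libraries of 1 group differed more than sampling noise allows, with a chi-square per degree of freedom between 2.79 and 3.62. They are called A and B in no order. The labels do not state whether the 2 libraries of a group came from different cultures, and p-values therefore rest on a spread that may be technical. The library sizes behind the deposited values were 0.838 and 0.846 times the summed reads in AF without glucose at 7 h and 1.05 times in both libraries of regular culture at 7 h. With each library scaled instead to its summed reads (total scaling), the median log2 fold change of all genes at 7 h was -0.32 in place of -0.01, and changes at 7 h are to be read against that shift.

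The summed level of the 75 genes was 4007 and 3937 CPM in AF without glucose at 7 h, against 3724 and 3724 CPM in regular culture at 7 h. At 1 h it was 3318 and 3370 CPM in AF without glucose, against 3329 and 3331 CPM in cells of regular culture. The groups did not overlap at 7 h and overlapped at 1 h. Without MRPL18 the sum at 7 h was 3686 and 3626 CPM in AF without glucose, against 3673 and 3675 CPM in regular culture, so that the 2 groups overlapped. As a share of the reads of all listed genes, which no scaling between libraries touches, the 75 genes held 0.336% and 0.333% in AF without glucose at 7 h, against 0.389% and 0.392% in regular culture. The share was thus lower in treated cells at 7 h while the summed CPM was higher. At 1 h the shares were 0.362% and 0.367% in AF without glucose, against 0.346% and 0.346% in regular culture. In bulk RNA, fewer molecules per cell and fewer cells that express a gene cannot be told apart.

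**Figure D1:**
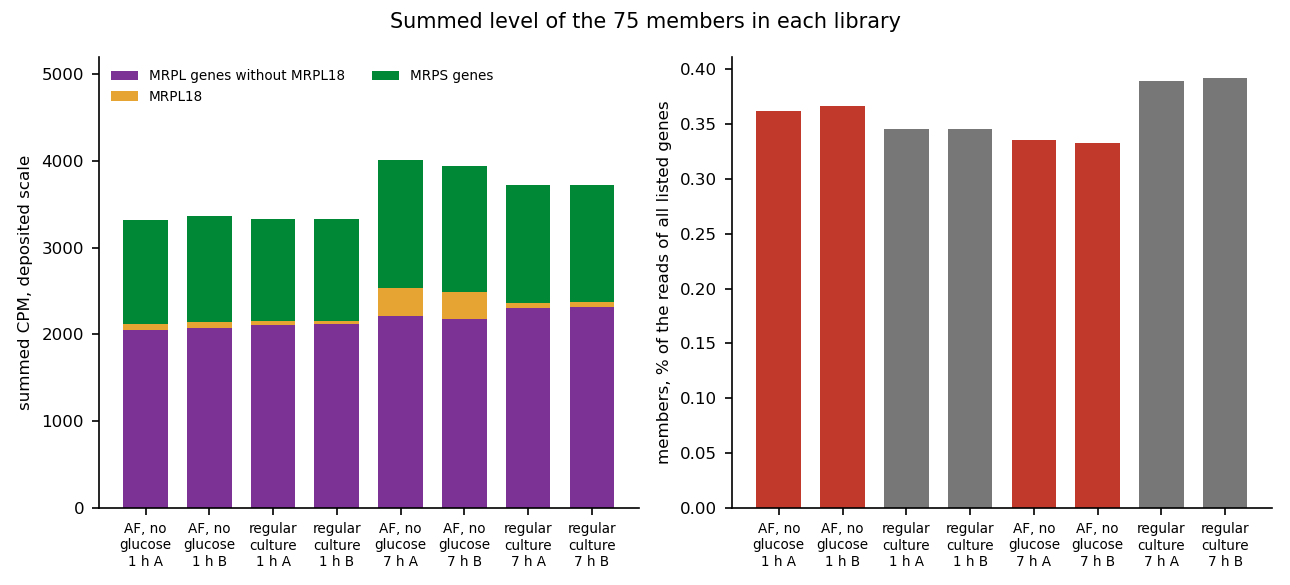
Left, summed CPM of the members in each of the 8 libraries, stacked as MRPL genes without MRPL18, MRPL18 alone, and MRPS genes; right, the members' share (%) of the reads of all listed genes. The bars of AF without glucose at 7 h reach 4007 and 3937 CPM, with 321 and 311 CPM from MRPL18, and their shares of 0.336% and 0.333% are the lowest of the 4 groups.

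At 7 h the treatment moved most of these genes, but in both directions and by little. Of the 75 genes, 26 were higher and 30 lower in AF without glucose than in regular culture, and 19 passed in neither direction (limma, adjusted p under 0.05 over all genes tested). Over all 13028 genes tested, 40.5% were called higher and 41.1% lower, beside 34.7% and 40% of the members, so the members' shares lie near or below the background. Their median log2 fold change was -0.02, beside -0.01 for all genes, with quartiles of -0.34 and 0.22 over the members. Total scaling moved the counts to 12 higher and 55 lower and the median to -0.33, close to the median of -0.32 for all genes under that scaling. Of the 75 genes, 22 changed by at least 0.5 on the log2 scale in either direction, and 2 by at least 1, namely MRPL18 and MRPL34. MRPL18 was the only member more than 3 scaled median absolute deviations from the members' median, the limits being -1.42 and 1.39.

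By symbol, the 2 subunits were counted apart. At 7 h, 15 of 47 MRPL genes were higher and 19 lower, with a median log2 fold change of -0.06. Among the 28 MRPS genes 11 were higher and 11 lower, with a median of 0.07. Where a change of more than 1.5-fold was required, 1 MRPL gene was higher and 7 lower at 7 h, and 3 MRPS genes were higher and 3 lower. Under total scaling, 5 MRPL genes were higher and 35 lower at 7 h, and 7 MRPS genes were higher and 20 lower. At 1 h, 5 MRPL genes were higher and 6 lower, and 6 MRPS genes were higher and 1 lower. The difference between the subunits' counts was not tested. The MRPL median fold change minus the MRPS median was -0.13 on the log2 scale at 7 h, and no spread was computed for this value. A different quantity, the gap between the subunits' median log2 levels within a library, had a pooled SD between libraries of 0.05. Without regular library A of 7 h the difference of the median fold changes was -0.18. With subunits taken from structure-based names it was -0.09. The ratio of summed MRPL to summed MRPS level was 1.71 and 1.72 in AF without glucose at 7 h, against 1.73 and 1.75 in regular culture, and 1.78 and 1.75 at 1 h in AF without glucose, against 1.83 and 1.84 in regular culture. At both times, both treated libraries had a lower ratio than both regular ones. Without MRPL18, a choice made after seeing the data, the ratio was 1.495 and 1.51 in AF without glucose at 7 h, against 1.69 and 1.71 in regular culture, and 1.72 and 1.69 at 1 h in AF without glucose, against 1.79 and 1.80 in regular culture. The gap at 7 h was thus wider without that gene, and the order of the groups was as before at both times. On the MRPS side, MRPS6 alone held 6.87% and 7.06% of the members' summed level in AF without glucose at 7 h. In regular culture at 7 h it held 4.59% and 4.61%. The summed MRPS level at 7 h was 1477 and 1446 CPM in AF without glucose, against 1365 and 1356 CPM in regular culture. The summed MRPL level was 2530 and 2492 CPM, against 2360 and 2368 CPM. With MRPS6 taken out of these sums, also a choice made after seeing the data, both treated libraries have the higher ratio. The order of the groups at 7 h thus rests on MRPS6. At 1 h the ratio without MRPS6 was not computed.

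**Figure D2:**
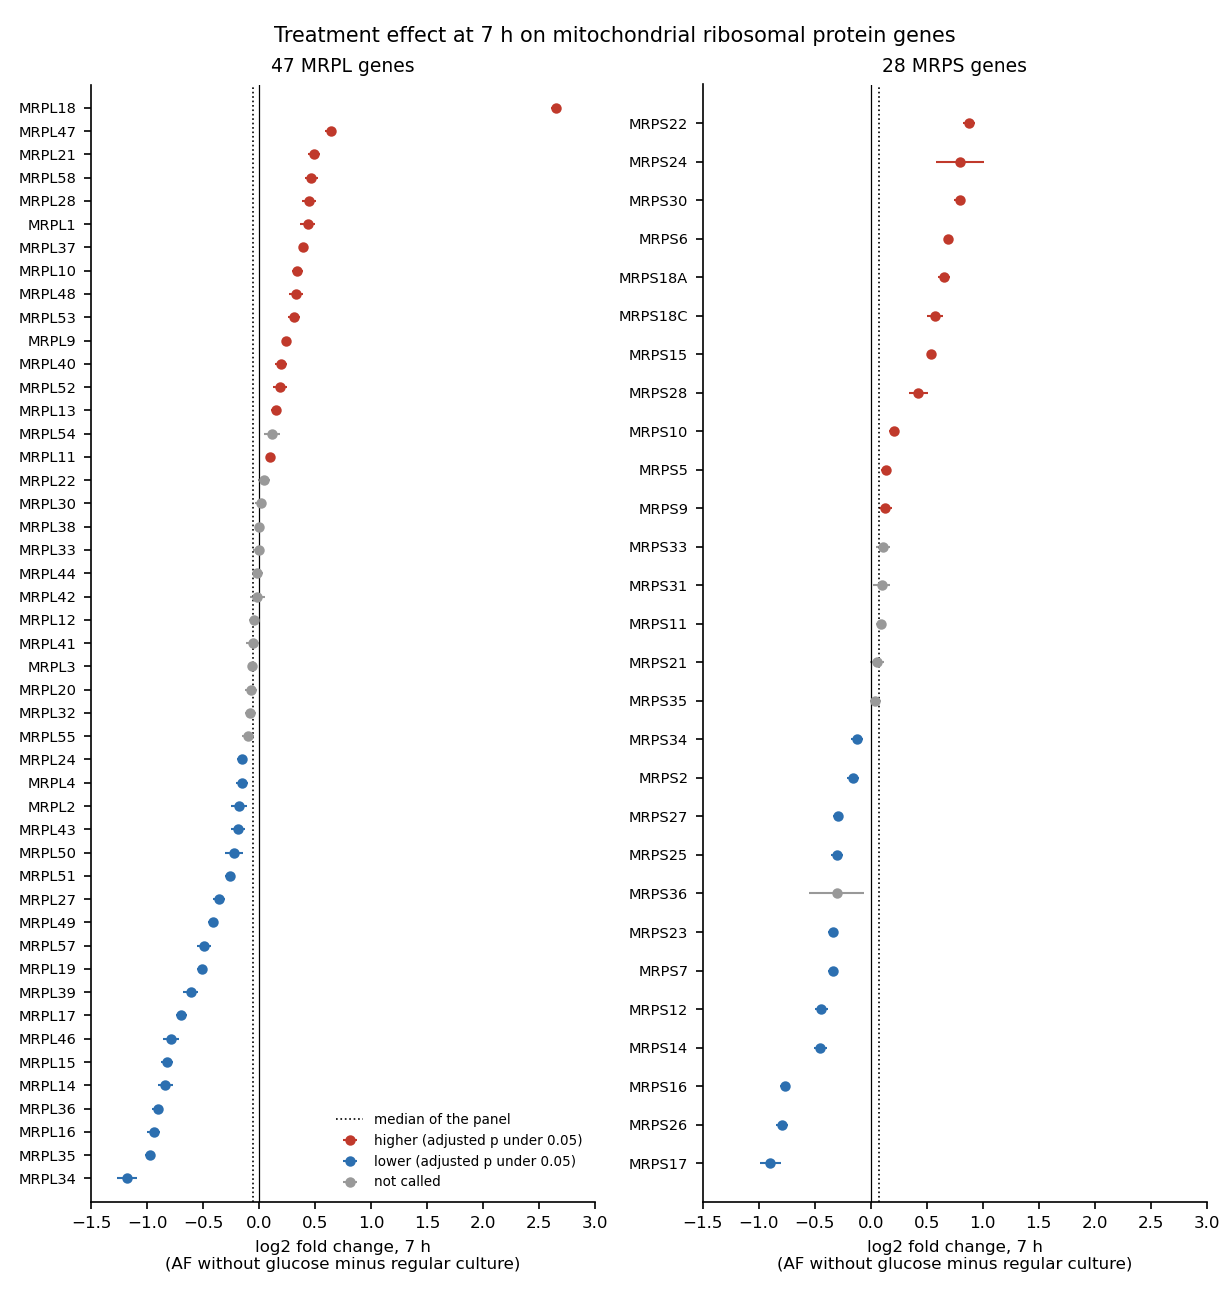
Log2 fold change at 7 h, AF without glucose minus regular culture, of every member (points, with the standard error from limma as bars), MRPL genes left and MRPS genes right, coloured by the call at adjusted p under 0.05. Of the MRPL genes, 15 lie to the right and 19 to the left among those called, and MRPL18 at 2.65 stands far from all others.

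MRPL18, a protein of the central protuberance of the large subunit, showed the largest rise. It had 321 and 311 CPM in AF without glucose at 7 h, against 51.4 and 49.1 CPM in regular culture at 7 h. At 1 h it had 67.6 and 69.9 CPM in AF without glucose, against 40.1 and 43.7 CPM in regular culture. Treated libraries were higher at both times with no overlap. MRPL18 rose 6.28-fold at 7 h (log2 scale 2.65 ± 0.04 SE, by limma with adjusted p = 1.43e-20) and 1.64-fold at 1 h (0.71 ± 0.04, adjusted p = 1.07e-10). The effect at 7 h exceeded that at 1 h by 1.94 ± 0.06 on the log2 scale (limma interaction, adjusted p = 1.12e-15). Its part in the summed level of all members was 8.003% and 7.90% in AF without glucose at 7 h, against 1.38% and 1.32% in regular culture. By level per kilobase of transcript it ranked 1 of 75 in AF without glucose at 7 h and 18 of 75 in regular culture at 7 h. Beyond its place in the mitoribosome, MRPL18 is known from heat-shocked mammalian cells for an isoform made from an alternative start codon that joins cytosolic ribosomes. Counts per gene do not separate such isoforms.

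MRPL18 lies on chromosome 6 (GRCh38, chr6:159789812-159798436, plus strand, 4 exons in its main transcript). It starts 210 bases from TCP1, which runs in the opposite direction and encodes a subunit of the cytosolic chaperonin CCT. TCP1 averaged 721 ± 0.72 CPM in AF without glucose at 7 h and 208 ± 0.34 CPM in regular culture at 7 h (SD, n = 2 each), a log2 fold change of 1.79. At 1 h the values were 250 ± 0.73 CPM in AF without glucose and 196 ± 0.56 CPM in regular culture, a log2 fold change of 0.35. Both genes of the pair were called higher at both times by limma. The promoter of MRPL18 is printed because the gene moved furthest, with 8 letters of a heat shock element type in capitals. The sequence is RefSeq's (GRCh38.p14, chr6:159789562-159789861, plus strand), from 250 bases before to 50 bases after the start.
MRPL18: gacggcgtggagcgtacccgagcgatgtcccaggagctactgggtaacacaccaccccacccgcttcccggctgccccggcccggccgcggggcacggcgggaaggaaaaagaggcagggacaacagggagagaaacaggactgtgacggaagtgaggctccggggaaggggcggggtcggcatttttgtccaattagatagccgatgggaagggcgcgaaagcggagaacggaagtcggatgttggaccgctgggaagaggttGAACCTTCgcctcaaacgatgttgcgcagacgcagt

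MRPS24, a small-subunit protein, had the lowest mean level per kilobase of all members and was the only one to fall more than 2-fold at 1 h. At 1 h it had 1.99 and 1.5 CPM in AF without glucose, against 4.41 and 3.67 CPM in regular culture. The groups did not overlap, and the log2 fold change was -1.20 ± 0.21 SE (limma adjusted p = 0.000157). At 7 h it had 2.58 and 3.73 CPM in AF without glucose, against 2.108 and 1.478 CPM in regular culture, again with no overlap, but in the other direction (0.80 ± 0.21, limma adjusted p = 0.00201). The difference of the 2 effects, 1.99 ± 0.30, was called by limma (adjusted p = 6.94e-06). Regular culture itself was lower at 7 h than at 1 h, by a log2 fold change of -1.16 ± 0.21 (limma adjusted p = 0.000101). The 2 treatment effects were each set against a different level in regular culture, and the 2 treated groups averaged 1.74 ± 0.34 CPM at 1 h and 3.16 ± 0.81 CPM at 7 h (SD, n = 2 each). MRPS24 shares 606 exon bases with the readthrough gene URGCP-MRPS24, out of 2613 over all its annotated transcripts and 707 in its main transcript. How many of the shared bases lie in the main transcript was not determined. Both lie on the same strand, and how the counting divided reads in shared bases is not given in the labels. When the test required a change of more than 1.5-fold, these calls of MRPS24 were lost at 1 h, at 7 h and with time in regular culture, and that of the difference was kept.

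MRPS24 lies on chromosome 7 (GRCh38, chr7:43866558-43869893, minus strand). Its promoter window (chr7:43869468-43869767, minus strand) is printed because the gene was an outlier at 1 h, with a match to letters bound by YY1 in capitals.
MRPS24: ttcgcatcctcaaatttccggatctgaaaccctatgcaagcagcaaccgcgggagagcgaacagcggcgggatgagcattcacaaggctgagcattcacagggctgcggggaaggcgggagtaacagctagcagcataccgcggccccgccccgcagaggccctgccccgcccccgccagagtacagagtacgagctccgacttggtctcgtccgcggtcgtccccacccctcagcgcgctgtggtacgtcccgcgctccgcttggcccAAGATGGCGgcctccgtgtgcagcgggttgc

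**Figure D3:**
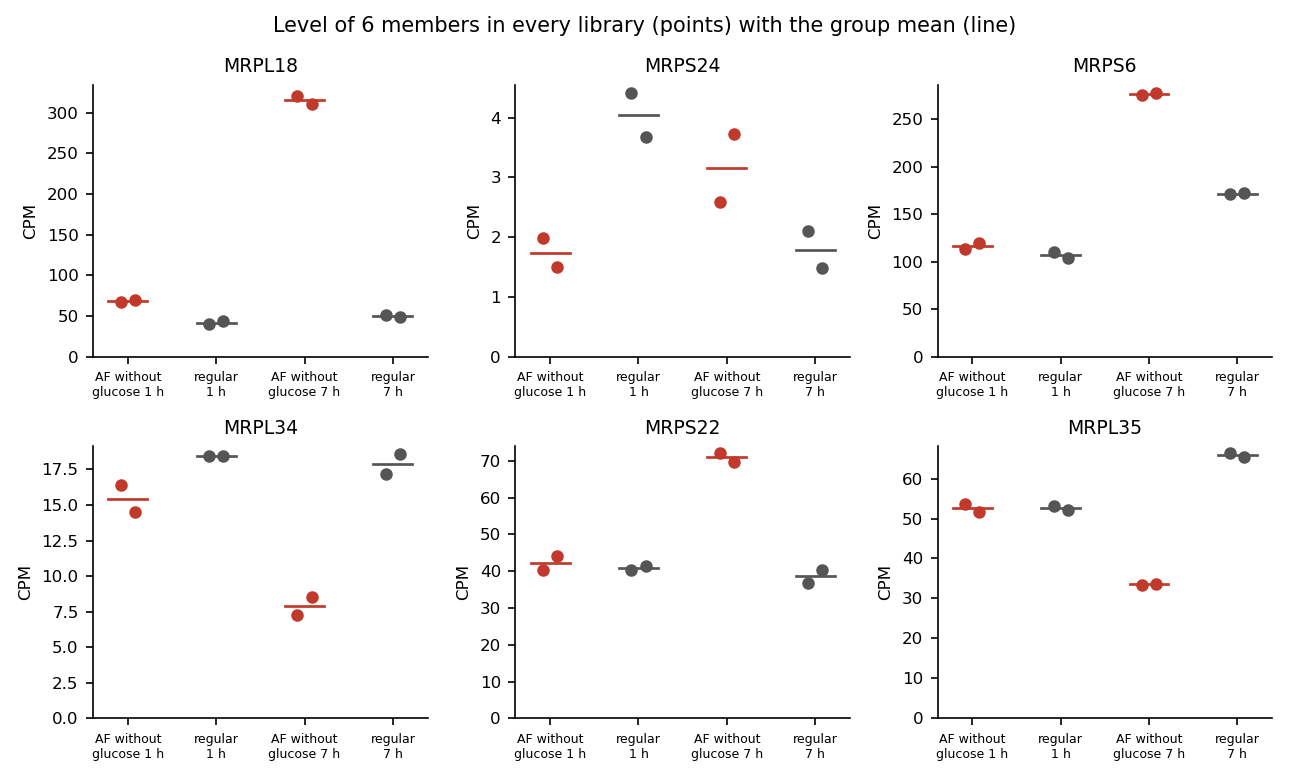
Level (CPM) of MRPL18, MRPS24, MRPS6, MRPL34, MRPS22 and MRPL35 in each of the 8 libraries (points, 2 a group) with group means (lines), AF without glucose in red and regular culture in grey. MRPL18 reaches 321 and 311 CPM in AF without glucose at 7 h, and MRPS24 is lower at 1 h and higher at 7 h in treated libraries than in regular culture.

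The 4 largest falls at 7 h were in large-subunit genes with bacterial or universal homologues. MRPL34, the homologue of bacterial L34, had 7.23 and 8.55 CPM in AF without glucose, against 17.2 and 18.6 CPM in regular culture. That is 2.26-fold lower, with no overlap (log2 fold change -1.18 ± 0.09 SE, limma adjusted p = 1.94e-10). MRPL35 had 33.5 and 33.6 CPM in AF without glucose, against 66.5 and 65.3 CPM in regular culture (-0.97 ± 0.04, limma adjusted p = 7.20e-14). MRPL36, the homologue of a small zinc-binding bacterial protein, had 25.3 and 24.9 CPM in AF without glucose, against 47.1 and 46.8 CPM in regular culture (log2 fold change -0.90). MRPL16, which lies near the tRNA sites, had 16.7 and 17.1 CPM in AF without glucose, against 32.1 and 32.8 CPM in regular culture (-0.94). In none of these genes did the groups overlap. MRPL14, a protein of the face that meets the small subunit, fell by 0.84 and MRPL15 by 0.82 on the log2 scale. The last of these had 32.4 CPM in both libraries of AF without glucose, against 57.8 and 56.8 CPM in regular culture. All 6 genes were called by limma over all genes.

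Of the other genes with MRPL symbols called higher at 7 h, MRPL47 moved most. It is the homologue of a protein at the rim of the exit tunnel, where the new chain leaves the ribosome. MRPL47 had 59.2 and 58.5 CPM in AF without glucose, against 36.8 and 38.8 CPM in regular culture, a log2 fold change of 0.64 ± 0.05 (limma adjusted p = 1.67e-10). At 1 h it had 36.1 and 36.3 CPM in AF without glucose, against 37.4 and 37.2 CPM in regular culture. The treated libraries were thus above regular culture at 7 h, with no overlap, and just below it at 1 h, without a call.

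Among small-subunit genes, MRPS22, a protein found only in mitochondrial ribosomes and known as a disease gene in humans, rose most at 7 h. It had 72.2 and 69.6 CPM in AF without glucose, against 36.9 and 40.4 CPM in regular culture. The groups were far apart, 1.84-fold (log2 fold change 0.88 ± 0.05 SE, limma adjusted p = 1.09e-11). MRPS6 and MRPS18C belong to families whose bacterial homologues bind each other on the small subunit. MRPS6 had 275 and 278 CPM in AF without glucose, against 171 and 172 CPM in regular culture (0.69 ± 0.04, limma adjusted p = 1.53e-12). MRPS18C had 24.6 and 24.6 CPM in AF without glucose, against 16.03 and 17.03 CPM in regular culture (0.57 ± 0.07, limma adjusted p = 2.58e-07). Both were higher in every treated library at 7 h.

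The falls of small-subunit genes at 7 h were led by MRPS17, with 16.9 and 12.7 CPM in AF without glucose, against 27.6 and 27.1 CPM in regular culture (log2 fold change -0.90 ± 0.09 SE, limma adjusted p = 3.59e-08). MRPS26, a protein specific to mitochondria, had 25.13 and 25.98 CPM in AF without glucose, against 43.4 and 45.1 CPM in regular culture (-0.79 ± 0.05, limma adjusted p = 2.15e-11). MRPS16, the homologue of bacterial S16, had 58.1 and 54.8 CPM in AF without glucose, against 95.1 and 96.9 CPM in regular culture (-0.77 ± 0.04, limma adjusted p = 8.97e-13). In each of the 3 the treated libraries lay below both regular ones.

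Symbols do not always give the subunit. In RefSeq, 72 of the 75 genes carry a structure-based name, and by it MRPS30 and MRPS18A belong to the large subunit. Both rose at 7 h. MRPS30 had 63.3 and 62.3 CPM in AF without glucose, against 36.3 and 36.1 CPM in regular culture (0.80 ± 0.05 SE, limma adjusted p = 1.79e-11). MRPS18A had 54.2 and 53.5 CPM in AF without glucose, against 34.7 and 33.8 CPM in regular culture (0.65 ± 0.05, limma adjusted p = 6.77e-10). With both moved, 17 of 49 large-subunit genes were higher and 19 lower at 7 h (median -0.05), and 7 of 23 small-subunit genes were higher and 11 lower (median 0.04). By origin, 10 of 25 genes with universal homologues were higher and 11 lower (median 0.01), 5 of 18 with bacterial homologues were higher and 7 lower (median -0.08), and 9 of 29 found only in mitochondria were higher and 12 lower (median -0.02). Each class thus held both rises and falls.

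At 1 h the treatment moved few of these genes. Of the 75, 11 were higher and 7 lower in AF without glucose than in regular culture and 57 passed in neither direction, beside 17.7% of all genes called higher and 20.7% lower. The members' shares, 14.7% and 9.33%, were below that background, and their median log2 fold change was -0.01. The count of rises depended on single libraries, being 5 without treated library B and 7 without regular library A or without regular library B. Only 5 genes changed by at least 0.25 on the log2 scale, and MRPL18 and MRPS24 were the outliers. Under total scaling, 19 were higher and 4 lower, with a median of 0.06 beside 0.08 for all genes.

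After MRPL18, the largest rise at 1 h was that of MRPL10, the protein at the base of the stalk that recruits translation factors. MRPL10 had 60.8 and 65.2 CPM in AF without glucose, against 49.8 and 51.8 CPM in regular culture (log2 fold change 0.31 ± 0.05 SE, limma adjusted p = 2.01e-05). MRPS31 (0.30), MRPL1 (0.24), a protein of the mobile stalk at the tRNA exit side, and MRPS27 (0.24), a pentatricopeptide repeat protein, were also called by limma. MRPL1 was not called without treated library B (0.22) or without regular library B (0.20). Falls other than that of MRPS24 were small. MRPL34 (-0.26), MRPL33 (-0.23), MRPL12 (-0.20) and MRPL11 (-0.19) led them, of which MRPL12 forms the stalk and also binds the mitochondrial RNA polymerase. MRPL12 had 92.9 and 90.1 CPM in AF without glucose at 1 h, against 105 and 105 CPM in regular culture. The call of MRPL34 at 1 h was lost without treated library B (-0.17), without regular library A (-0.26) and without regular library B (-0.26).

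**Figure D4:**
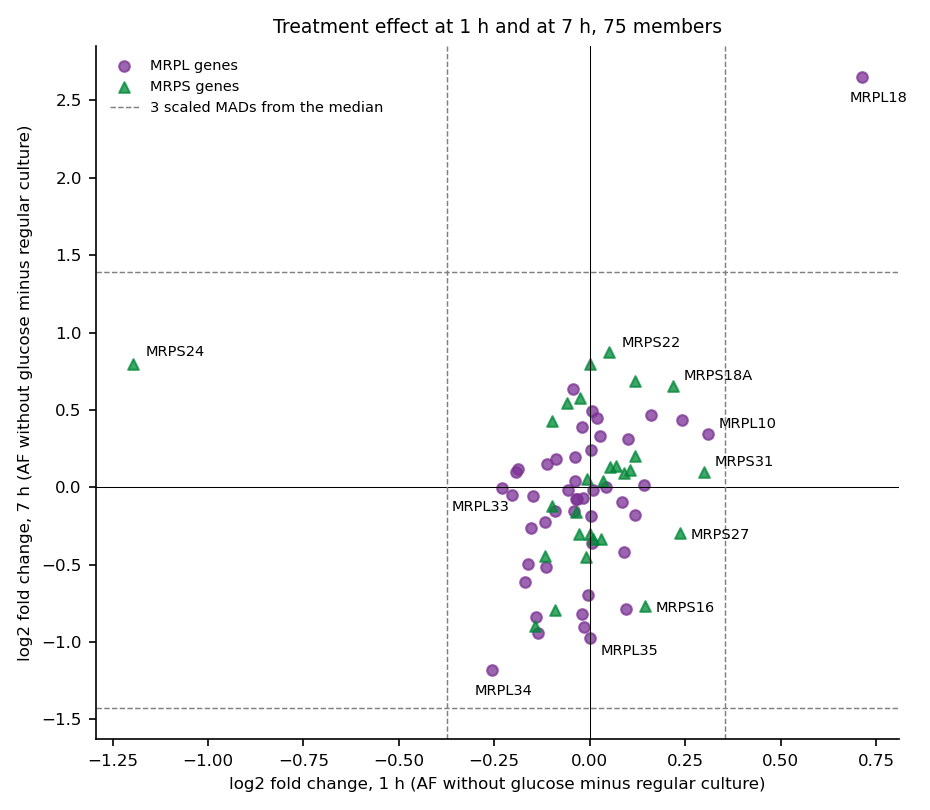
Log2 fold change (AF without glucose minus regular culture) at 7 h on the vertical axis against that at 1 h on the horizontal axis for the 75 members, MRPL genes as circles and MRPS genes as triangles, with dashed lines at 3 scaled median absolute deviations from the median. MRPL18 lies at 2.65 and 0.71 and MRPS24 at 0.80 and -1.20, both outside the limits at 1 h.

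The treatment effect differed with time in most members. The test of the difference, the effect at 7 h minus that at 1 h, called 24 higher and 24 lower of the 75 genes, beside 36.7% and 37% of all genes. The largest positive differences were those of MRPS24 (1.99), MRPL18 (1.94) and MRPS22 (0.83 ± 0.08 SE, limma adjusted p = 8.94e-09). The most negative were those of MRPL35 (-0.97 ± 0.06), MRPL34 (-0.92 ± 0.12) and MRPS16 (-0.91 ± 0.06, limma adjusted p = 2.58e-11). Of the members called at 7 h, 17 of the 26 that were higher and 25 of the 30 that were lower had no call at 1 h. MRPL10, MRPL58, MRPS6, MRPL1, MRPS10, MRPS18A and MRPL18 were higher at both times, and MRPL51, MRPL34 and MRPL19 were lower at both. MRPL58 is known as a peptidyl-tRNA hydrolase that also frees stalled ribosomes. On the deposited scale, the direction changed in 4 genes. MRPS16 and MRPS27 were higher at 1 h and lower at 7 h, and MRPL11 and MRPS24 were lower at 1 h and higher at 7 h. The rises of MRPL11 (0.10) and MRPS10 (0.21) at 7 h were smaller than the shift made by total scaling. That scaling put the median of all genes at -0.32 in place of -0.01. The direction of MRPL11 and MRPS10 at 7 h therefore depends on the scaling. The rise of MRPL10 at 7 h (0.34) was close to that shift in size, so whether it rose depends on the scaling too. The 2 treatment effects use separate libraries.

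In regular culture alone, many members were higher at 7 h than at 1 h. Of the 75 genes, 36 were higher and 4 lower at 7 h, with a median log2 fold change of 0.10, beside 30.7% of all genes called higher, 30.8% lower, and a median of 0.00. The members' shares were 48% and 5.33%. Without regular library B of 7 h, 2 were lower. MRPS6 had 171 and 172 CPM at 7 h, against 110 and 104 CPM at 1 h (0.67 ± 0.04 SE, limma adjusted p = 1.01e-11), and was above the members' upper limit of 0.65 in this comparison. MRPL15 (0.62) and MRPL36 (0.46) came next. Besides MRPS24, MRPL28 (-0.26) and MRPS18A (-0.18) were the most negative, and MRPS18A was not called without regular library B of 1 h (-0.12) or without regular library B of 7 h (-0.16). Of the 36 genes higher with time, 20 were lower in AF without glucose than in regular culture at 7 h, 8 were higher and 8 had no call. The comparisons share the libraries of regular culture at 7 h, so their values are given side by side only. MRPL15, for one, averaged 57.3 ± 0.74 CPM in regular culture at 7 h and 37.2 ± 1.53 CPM in regular culture at 1 h, with 32.4 ± 0.02 CPM in AF without glucose at 7 h (SD, n = 2 each).

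Levels per kilobase of the main transcript spread widely among the members. In AF without glucose at 7 h they had a median of 28.5 and reached from 4.47 to 323 CPM per kilobase, and in regular culture at 7 h they had a median of 28.6 and reached from 2.54 to 173. Large-subunit genes had a median of 34.02 in AF without glucose at 7 h, against 31.7 in regular culture at that time. For small-subunit genes the median was 21.4 CPM per kilobase in AF without glucose at 7 h, against 22.8 in regular culture. Averaged over the 4 groups, MRPS6 (170 CPM per kilobase), MRPL18 (122) and MRPL12 (101) were highest. MRPS24 (3.79), MRPS33 (5.63) and MRPS36 (5.73) were lowest. MRPS36 is named KGD4 in RefSeq and is known as a component of the oxoglutarate dehydrogenase complex. It had 7.49 and 6.67 CPM in AF without glucose at 7 h, against 14.05 and 5.43 CPM in regular culture, the widest disagreement within a pair of libraries among the named genes, and limma called no change in it. Across the 75 genes, the log2 fold change at 7 h had a Spearman rho of 0.38 with the number of exons, -0.14 with transcript length and -0.12 with the level in regular culture. These are descriptions across genes that share libraries, and genes are not replicates.

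Many members lie close to another gene. Within 1000 bases of the start of 22 members, a gene of the table starts on the opposite strand. At 7 h, 9 of these 22 pairs were called in the same direction, 6 in opposite directions, and in 7 at least 1 gene was not called. Over all genes tested, 40.5% were higher and 41.1% lower at 7 h, so many pairs agree or disagree by the number of calls alone. Pairs of other genes were not counted. MRPL46 and MRPS11 form such a pair and are counted from both sides. MRPL46 fell, with a log2 fold change of -0.79, and MRPS11 had 0.09 without a call. MRPS30 and its divergent transcript MRPS30-DT were both higher (0.80 and 1.38). MRPL49 (-0.42) lies beside FAU (0.27), which encodes a fusion of a ubiquitin-like protein and a cytosolic ribosomal protein. MRPS12 (-0.44), a protein of the decoding centre, lies beside SARS2 (0.54), the mitochondrial seryl-tRNA synthetase. MRPL18 and TCP1 were the pair with the largest rises.

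**Figure D5:**
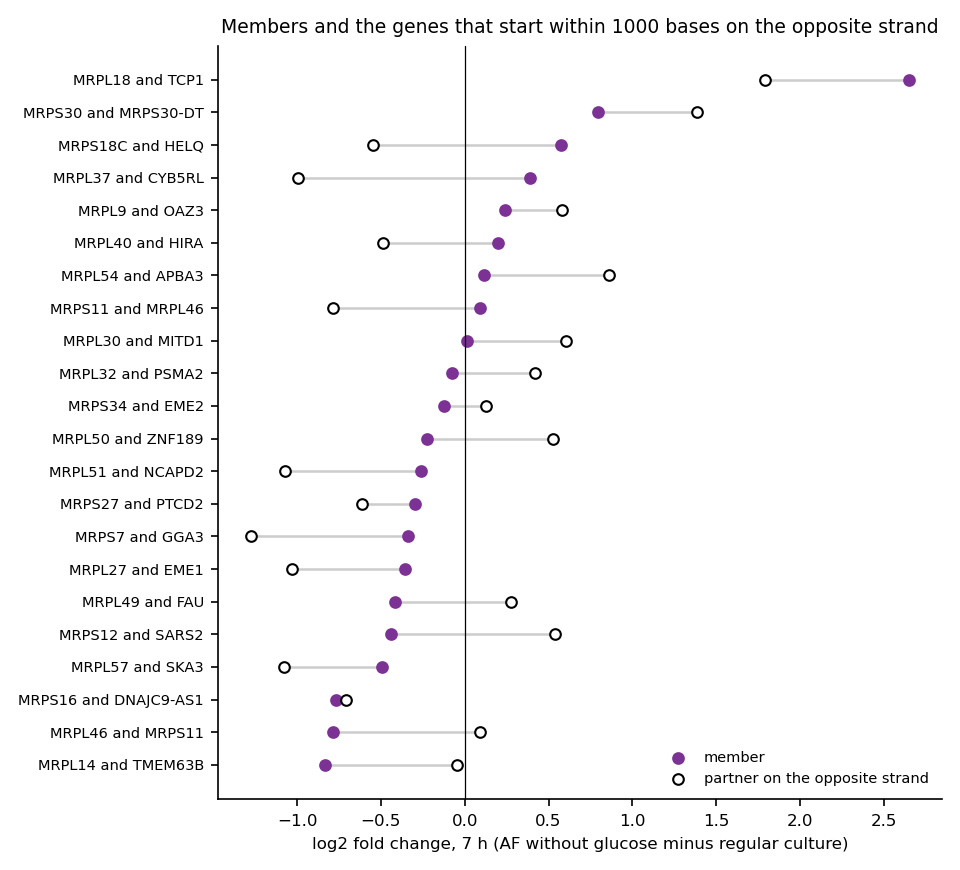
Log2 fold change at 7 h (AF without glucose minus regular culture) of 22 members (filled) and of the gene that starts within 1000 bases on the opposite strand (open), joined by a line. MRPL18 and TCP1 stand at 2.65 and 1.79, and the 6 pairs called in opposite directions cross 0.

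Exon sequence is shared with another gene of the table in 30 pairs that involve 25 members. At 7 h, 9 of these pairs were called in the same direction and 11 in opposite directions, where 40.5% of all genes tested were higher and 41.1% lower. Overlapping pairs among other genes were not counted. MRPS6 shares 273 of 4299 exon bases with SLC5A3, a myo-inositol transporter on the same strand, which averaged 511 ± 39.9 CPM in AF without glucose at 7 h and 985 ± 6.81 CPM in regular culture at 7 h (SD, n = 2 each), a log2 fold change of -0.95. In regular culture, SLC5A3 and MRPS6 were both higher at 7 h than at 1 h (1.32 and 0.67). MRPS18C shares 1956 of 4866 exon bases with ABRAXAS1 and MRPL34 shares 223 of 1686 with ABHD8, both on the opposite strand, and neither neighbour was called at 7 h (0.03 and -0.11). MRPL12 shares 701 of 1028 exon bases with a gene model on the same strand that is not in the table. Strand cannot tell apart reads in bases shared on the same strand. Since strand was not recorded, it cannot do so for opposite strands either. The part of such reads in these values was not tested.

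RefSeq promoter windows were at hand for 68 of the 75 members, 84 windows in all since some genes have several starts. Letters were searched on both strands. Those bound by YY1, AANATGGCG, occurred in 20.2% of the members' windows, 5.93% of the 15280 windows of all tested genes and 3.19% of all 35116 windows. The ETS letters CCGGAAGT, bound by GABP, occurred in 16.7%, 7.36% and 4.14%. Both factors are known regulators of nuclear genes for mitochondrial proteins. NRF1 letters, GCGCNNGCGC, occurred in 11.9%, 13.7% and 8.32%. Of the 17 genes with the YY1 letters, 9 were higher and 4 lower at 7 h (median log2 fold change 0.13), and of the 51 without them 13 were higher and 23 lower (median -0.07). Of the 9 with NRF1 letters, 1 was higher and 5 lower (median -0.49), and of the 59 without them 21 were higher and 22 lower (median -0.02). Of the 12 with ETS letters, 5 were higher and 4 lower (median -0.03), and of the 56 without them 17 were higher and 23 lower (median -0.03). Over all genes tested, 40.5% were higher and 41.1% lower at 7 h, and genes outside the members were not split by letters.

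Letters of stress response elements were searched in the same way. The antioxidant response core TGACNNNGC occurred in 11.9% of the members' windows and 14.4% of those of all tested genes. In the 10 genes that hold it, 0 were higher and 7 lower at 7 h (median -0.32), and of the 58 without it 22 were higher and 20 lower (median -0.00). Over all genes tested, 40.5% were higher and 41.1% lower. Calls of other genes with this core were not counted, and a link of the core to the falls was not tested. The amino acid response letters TGATGNAA occurred in 1.19% and 2%, with MRPL55 as the one member. A heat shock element of 3 units, GAANNTTCNNGAA, occurred in 2.38% of the members' windows, namely those of MRPL48 and MRPL51, and in 0.321% of those of all tested genes. The 2-unit letters GAANNTTC and TTCNNGAA, both contained in it, occurred in 7.14% and 10.7% of the members' windows and in 4.96% and 6.24% of those of all tested genes. MRPL18 held the first of these at its outermost start, and both at another of its RefSeq starts (chr6:159789617-159789916, plus strand). At 7 h MRPL48 had a log2 fold change of 0.33 and MRPL51 one of -0.26, both called by limma, and MRPL18 one of 2.65. The rise of MRPL48 was close in size to the shift under total scaling (median of all genes -0.32). MRPL51 shares 486 of 1551 exon bases with NCAPD2 on the opposite strand. NCAPD2 averaged 211 ± 3.35 CPM in AF without glucose and 444 ± 4.65 CPM in regular culture at 7 h (SD, n = 2 each). The part of shared reads in the fall of MRPL51 was not tested. The windows of MRPL48 (chr11:73787624-73787923, plus strand) and MRPL51 (chr12:6493213-6493512, minus strand) are shown with the 3-unit element in capitals, and that of MRPL34 (chr19:17305622-17305921, plus strand), the gene with the largest fall, with its NRF1 letters in capitals, all from RefSeq, GRCh38.p14.
MRPL48: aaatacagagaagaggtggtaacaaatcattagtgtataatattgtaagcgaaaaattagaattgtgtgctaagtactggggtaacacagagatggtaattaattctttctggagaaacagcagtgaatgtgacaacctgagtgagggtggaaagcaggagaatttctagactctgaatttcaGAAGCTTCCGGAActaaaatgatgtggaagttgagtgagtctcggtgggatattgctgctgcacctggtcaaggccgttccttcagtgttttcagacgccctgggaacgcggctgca
MRPL51: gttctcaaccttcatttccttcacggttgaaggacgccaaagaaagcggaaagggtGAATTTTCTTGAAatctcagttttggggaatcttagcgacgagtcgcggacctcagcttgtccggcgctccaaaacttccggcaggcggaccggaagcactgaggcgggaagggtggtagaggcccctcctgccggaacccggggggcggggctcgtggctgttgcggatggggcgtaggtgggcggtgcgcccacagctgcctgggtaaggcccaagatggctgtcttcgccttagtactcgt
MRPL34: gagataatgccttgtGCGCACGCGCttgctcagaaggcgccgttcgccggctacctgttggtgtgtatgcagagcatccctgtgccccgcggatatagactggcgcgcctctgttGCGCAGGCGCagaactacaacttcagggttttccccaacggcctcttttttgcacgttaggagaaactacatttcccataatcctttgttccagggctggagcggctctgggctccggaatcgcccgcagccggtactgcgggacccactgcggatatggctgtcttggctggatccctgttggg
Of the RefSeq windows of MRPL34, the printed one held the most NRF1 matches. That at chr19:17305403-17305702 held 1, and those at chr19:17302615-17302914 and chr19:17292323-17292622 held 0. A match of letters describes the sequence and is not evidence of binding.

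Genes that act with the mitoribosome were counted in the same comparisons, where 40.5% of all 13028 genes tested were higher and 41.1% lower at 7 h, and 17.7% were higher and 20.7% lower at 1 h. Of 5 mitoribosomal proteins with other names, DAP3 (0.69) and AURKAIP1 (0.37) rose, CHCHD1 (-0.74) and PTCD3 (-0.61) fell, and GADD45GIP1 was not called. Of 25 factors of mitoribosome assembly and ribosomal RNA modification, 3 were higher and 17 lower, with a median log2 fold change of -0.41. The lowest were the helicase DDX28 (-1.52), the RNA-binding FASTKD2 (-1.41) and MTERF3 (-1.19), and the higher ones were NGRN (0.65), MPV17L2 (0.59) and GTPBP10 (0.28). At 1 h, 8 of these 25 were higher and 3 lower, with a median of 0.07. Of 17 mitochondrial translation factors, 9 were higher and 4 lower at 7 h (median 0.16). That median is smaller than the shift under total scaling, which put the median of all genes at -0.32. So are the rises of TUFM (0.26), MTIF2 (0.24), OXA1L (0.21), MRRF (0.18), MTRF1L (0.16) and SLIRP (0.16), and that of GTPBP10 above. Their direction depends on the scaling, and the lists were not counted under total scaling. GFM2, an elongation factor homologue that recycles ribosomes, had the largest rise (1.98), ahead of MTRF1 (0.86) and LRPPRC (0.48). TSFM (-1.14), MTFMT (-1.07), which formylates the initiator tRNA, and MTRFR (-1.01) fell.

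Among 13 factors of mitochondrial transcription and biogenesis, 5 were higher and 6 lower at 7 h. The rises of TFB2M (0.24), YY1 (0.18) and PPARGC1B (0.31) did not exceed the shift under total scaling. MYC (2.19) and GABPB1 (1.10) were furthest above regular culture, and NRF1 (-1.18), TEFM (-1.05) and PPRC1 (-1.03) furthest below it. MYC averaged 137 ± 2.99 CPM in AF without glucose at 7 h, against 30.0 ± 1.93 CPM in regular culture (SD, n = 2 each). At 1 h it was lower in AF without glucose, with 60.6 ± 0.94 CPM against 169 ± 5.02 CPM (log2 fold change -1.48). Regular culture itself fell from 1 h to 7 h by a log2 fold change of -2.49, so the 2 effects had different controls. The reads of the 2 ribosomal RNAs of the mitoribosome, RNR1 and RNR2, were higher at 7 h by 1.11 and 1.90 on the log2 scale. The libraries were made with an mRNA chemistry, and whether their reads follow the amount of ribosomal RNA was not tested. RNR2 averaged 5363 ± 208 CPM in AF without glucose and 1439 ± 35.7 CPM in regular culture at 7 h (SD, n = 2 each). Both are copied from mitochondrial DNA. Of 78 cytosolic ribosomal protein genes, 70 were higher and 2 lower at 7 h, with a median of 0.46, beside 26 and 30 of the 75 mitochondrial ones. Under total scaling, 52 were higher and 10 lower, with a median of 0.14, beside 12 and 55 and a median of -0.33 for the mitochondrial ones. The difference between the 2 families was not tested.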

How the data were processed

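Library preparation used the SMART-Seq mRNA HT chemistry followed by Nextera XT, per the labels' protocols, and does not record strand. Alignment to GRCh38 by HISAT2 and use of edgeR are named in the submitters' processing notes, without versions, counter or filters. The deposited values are log2 CPM, scaled between libraries by the authors, with a small prior. Its size, 0.0522 CPM, was read from the lowest entries and subtracted to give CPM and whole reads (100% of values within 0.1 read). Column headings give a library's group but no replicate number.

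A gene was tested if 2 or more libraries reached 1 CPM (13028 of 13036). The fit to the log2 values used limma 3.58.1 (R 4.3.3), with 1 mean for each of the 4 groups over 8 libraries, an intensity trend, and Benjamini-Hochberg adjustment over all genes tested. The script was tested on simulated data. SE are limma's. An unseen gene could hold up to 3 reads, which is at most 0.129 CPM here. Subunit medians, lists, promoter letters and neighbours are descriptions without a test. Lengths and exons come from GENCODE (GRCh38), structure-based names, starts and promoter windows from RefSeq. Alternatives were quantile normalization, scaling each library to its summed reads (total scaling), other filters, a pseudocount of 0.5 CPM, no trend, the libraries of 1 comparison alone, a required change of 1.5-fold and each library left out. Weights by voom and subunits by structure-based name were added after seeing the data. The members and lists were chosen with earlier results of these data known. Named genes are MRPL18 and MRPS24, the 8 largest rises and falls at 7 h, 5 at 1 h, 3 in the other comparisons, outliers beyond 3 scaled median absolute deviations, the 3 highest and lowest per length, and neighbours of these; further members are named where a small count calls for it and were chosen after their values were seen.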

Additional observations from a re-analysis of the deposited data

Results flagged for a closer look

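The effect of the treatment differed between 7 h and 1 h in 22 named members, by a limma test of the difference itself. Adjustment was by Benjamini-Hochberg over all genes. The difference is the effect at 7 h minus that at 1 h (log2 scale, 2 libraries in each group). That test called 36.7% of all genes higher and 37% lower, beside 32% and 32% of the 75 members. The named members were chosen partly for the size of their changes. Differences were positive in MRPS24 (1.99), MRPL18 (1.94), MRPS22 (0.83), MRPS30 (0.79), MRPL47 (0.68), MRPS18C (0.60), MRPS6 (0.57), MRPS18A (0.43), MRPL28 (0.43), MRPL11 (0.30), MRPL33 (0.23) and MRPL12 (0.15). They were negative in MRPL35 (-0.97), MRPL34 (-0.92), MRPS16 (-0.91), MRPL36 (-0.89), MRPL16 (-0.80), MRPL15 (-0.80), MRPS17 (-0.75), MRPS26 (-0.70), MRPL14 (-0.70) and MRPS27 (-0.53). In MRPL33 and MRPL12 the difference came with a call at 1 h and none at 7 h. Under total scaling the median difference of all genes was -0.37 in place of 0.01. That shift is larger than the positive differences of MRPL11, MRPL33 and MRPL12, so their sign depends on the scaling. Groups of 2 libraries are too small for a check of single libraries that stand apart.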

How the results depend on the processing

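No paired analysis was possible because the columns carry no replicate number. Over 39 values of named members and all settings tried, 491 of 521 checks kept the direction and the side of the threshold. In 30 the call was lost and 0 reversed, and 21 of the lost calls came from requiring a change of 1.5-fold. Named members were mostly chosen for the largest changes, so a reversal among them was unlikely, and these checks do not speak for smaller changes. That requirement left 4 members higher and 10 lower at 7 h, 4 and 7 in the difference of effects, and 0 in either direction at 1 h and with time in regular culture (limma; 1 higher and 1 lower in each at an unadjusted p under 0.05). MRPL18 at 1 h and MRPS24 in both treatment comparisons and with time were among the calls it ended. Total scaling gave 19 higher and 4 lower at 1 h, 12 and 55 at 7 h, and 7 and 52 in the difference, and it ended the call of MRPL34 at 1 h. Without an intensity trend 7 were higher and 4 lower at 1 h, and voom weights kept every call of a named member. With each library left out in turn, 5 to 8 were higher and 5 to 7 lower at 1 h, 23 to 27 and 27 to 29 at 7 h, 21 to 24 and 22 to 26 in the difference, and 28 to 31 and 2 to 4 with time in regular culture. The MRPL median minus the MRPS median then ranged from -0.075 to 0.0019 at 1 h, so its sign is not settled, and from -0.184 to -0.092 at 7 h. Where a group was left with 1 library, that library was assumed to vary like the others. The cause of these shifts was not tested. With 2 libraries a group, changes of a few percent are at the limit of what the spread allows, and for MRPS24, with 55 reads in its lowest library, counting error adds to it.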
